A study of Mus musculus with 4 samples.

Results

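Histone genes encode the proteins that package DNA into nucleosomes. Here they were followed in a map of chromatin recovered with a tagged thyroid hormone receptor from mouse striatum. RefSeq protein-coding genes on build GRCm38 were taken when their symbol began with H1f, H2ac, H2bc, H2az, H3c, H3f or H4c. This gave 73 histone genes of 21774 protein-coding genes on chromosomes 1 to 19, X and Y. A gene was marked when the summit of a deposited peak lay within 5 kb of its annotated span. The marked genes were thus chosen by the summit positions of the peaks themselves, and every count, fold and pileup below is a description with no test.

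The series compares 3 IP fractions, recovered on IgG-coated magnetic beads, with 1 input that had no antibody. All 4 libraries were of striatum, and the series title gives Gad2Cre x ThraGS as the cross and GS-TRa1, a GS-tagged form of thyroid hormone receptor alpha 1, as the target. Gad2-Cre acts in GABAergic neurons, the main cell class of the striatum, while the tissue also holds glia and vessels. Age, treatment and the number of animals were not in the labels. One list of 7484 peaks joins the libraries, so no spread between IP fractions and no library depth can be given. No IP from animals without the tag was analysed here, and recovery by the beads alone was not separated from binding. The extract text of the labels speaks of complexes of histones with DNA, but the values here are positions along DNA at histone genes and say nothing of histone protein.

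Histone genes fall into classes with distinct uses. Replication-dependent genes are small, mostly lack introns, lie packed in clusters and are transcribed mainly in S phase to supply H1, H2A, H2B, H3 and H4 for new chromatin. Variant genes such as H3f3a and H3f3b, which encode H3.3, and H2az1 and H2az2, which encode H2A.Z, are transcribed outside S phase as well and supply histones to non-dividing cells such as neurons. TRα1 binds DNA as a nuclear receptor, classically with a retinoid X receptor at direct repeats of a half-site, and represses or activates nearby genes depending on hormone.

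A summit fell inside the promoter window, 250 bases before to 50 bases after the RefSeq start, of H4c6 and H2bc3 and of no other histone gene with a window in the table. These windows are shown because they are the closest meetings of a peak and a histone start. They come from RefSeq on GRCm38.p6, at chr13:23551619-23551918 on the minus strand for H4c6, a histone H4 gene, and at chr13:23746484-23746783 on the plus strand for H2bc3, a histone H2B gene. Capitals mark, on either strand, the octamer ATTTGCAT, the CCAAT box, the TATA box letters TATAAA and the GC box letters GGGCGG.
H4c6: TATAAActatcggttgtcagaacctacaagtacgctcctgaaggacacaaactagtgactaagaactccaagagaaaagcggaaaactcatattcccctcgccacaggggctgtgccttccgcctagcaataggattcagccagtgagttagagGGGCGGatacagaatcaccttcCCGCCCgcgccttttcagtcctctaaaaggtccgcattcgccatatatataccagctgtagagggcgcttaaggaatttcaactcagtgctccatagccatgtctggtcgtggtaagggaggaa
H2bc3: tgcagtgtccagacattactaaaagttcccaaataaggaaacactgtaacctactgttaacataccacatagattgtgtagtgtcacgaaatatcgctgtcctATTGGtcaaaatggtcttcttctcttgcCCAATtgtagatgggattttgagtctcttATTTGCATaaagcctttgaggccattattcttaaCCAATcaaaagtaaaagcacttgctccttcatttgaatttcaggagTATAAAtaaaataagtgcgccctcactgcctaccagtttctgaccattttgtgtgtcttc
The summit lay 21 bp after the start of H4c6 and 72 bp before the start of H2bc3. In the H2bc3 window the octamer began 90 bases before the start and CCAAT matches began 147, 119 and 56 bases before it, the first of them on the other strand. In the H4c6 window GC boxes began 96 and 74 bases before the start, the second on the other strand. The TATAAA letters began at the first base of the H4c6 window, 250 bases before the start, and 10 bases before the start of H2bc3.

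A summit within 5 kb was found for 17 of the 73 histone genes, 23.3% (95% exact interval 14.2 to 34.6), where the same rule marked 19.2% of all protein-coding genes. The share is near that background at this setting. With only peaks of a −log10 q of at least 10, 14 histone genes were marked, 19.2%, beside 11.6% of all protein-coding genes. Those 14 genes rested on 6 distinct peaks, no interval was computed for them, and the difference was not tested. The 17 genes drew on only 9 distinct peaks, because neighbours share them. Of these peaks, 8 marked at least 2 genes, and the peaks at H2ac21 and at H2bc3 marked 3 genes each. The interval treats genes as independent, which shared peaks make untrue.

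Histone genes are short, with 62 of 73 spanning at most 2 kb, and a short gene offers a peak less room. Of those 62 genes 15 were marked, 24.2%, where 3.33% of all 2554 protein-coding genes of that length were. That short set is rich in olfactory, vomeronasal and other receptor genes. Without receptor, defensin, keratin-associated and predicted genes, a choice made after seeing the data, 7.78% of 848 short genes were marked. With the histone genes also taken out it was 6.49% of 786. Joined into non-overlapping windows, histone genes covered 484 kb with 9 summits, or 18.6 per Mb (exact Poisson interval 8.50 to 35.3). The joined windows of all protein-coding genes held 4.50 summits per Mb (4.38 to 4.63). Those of all 2554 short genes held 2.96 (2.35 to 3.69). Those of the 848 short genes held 6.71 (5.11 to 8.65). That set includes the histone genes and their 9 summits, so its interval cannot be set against theirs as a separate one. The density without the histone genes was not computed. These intervals cover counting error only.

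Class was set by symbol alone, not by expression in S phase. Symbols in H2ac, H2bc, H3c and H4c and H1f1 to H1f6 were taken as replication-dependent, and all others as variant. All 63 replication-dependent genes lay in 3 clusters, runs of histone genes with gaps of at most 500 kb. Each of the 10 variant genes lay apart from all other genes of the symbol rule. H3f4 among them has histone genes outside that rule nearby. Of the replication-dependent genes 16 were marked, 25.4%, through 8 peaks. Of the 10 variant genes 1 was marked, 10%. The same rule marked 19.2% of all protein-coding genes. On chromosome 3, 7 of 10 histone genes were marked, 70% (exact interval 34.8 to 93.3), beside 19.3% of that chromosome's protein-coding genes. On chromosome 13, 2 of 22 were marked in the first block, 9.09% (1.12 to 29.2). In the second block there it was 7 of 31, 22.6% (9.59 to 41.1). Of all protein-coding genes on chromosome 13, 15.6% were marked. With neighbours sharing peaks, the 3 cluster counts rest on 4, 1 and 3 distinct peaks, and the intervals treat genes as independent. Between the first and last histone gene, summits stood at 59.6 per Mb on chromosome 3 (3 summits, exact Poisson interval 12.3 to 174), where the whole chromosome had 2.39 per Mb. In the first and second block on chromosome 13 they stood at 6.10 (0.739 to 22.0) and 9.90 per Mb (2.70 to 25.4), where that chromosome had 2.77 per Mb.

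**Figure D1:**
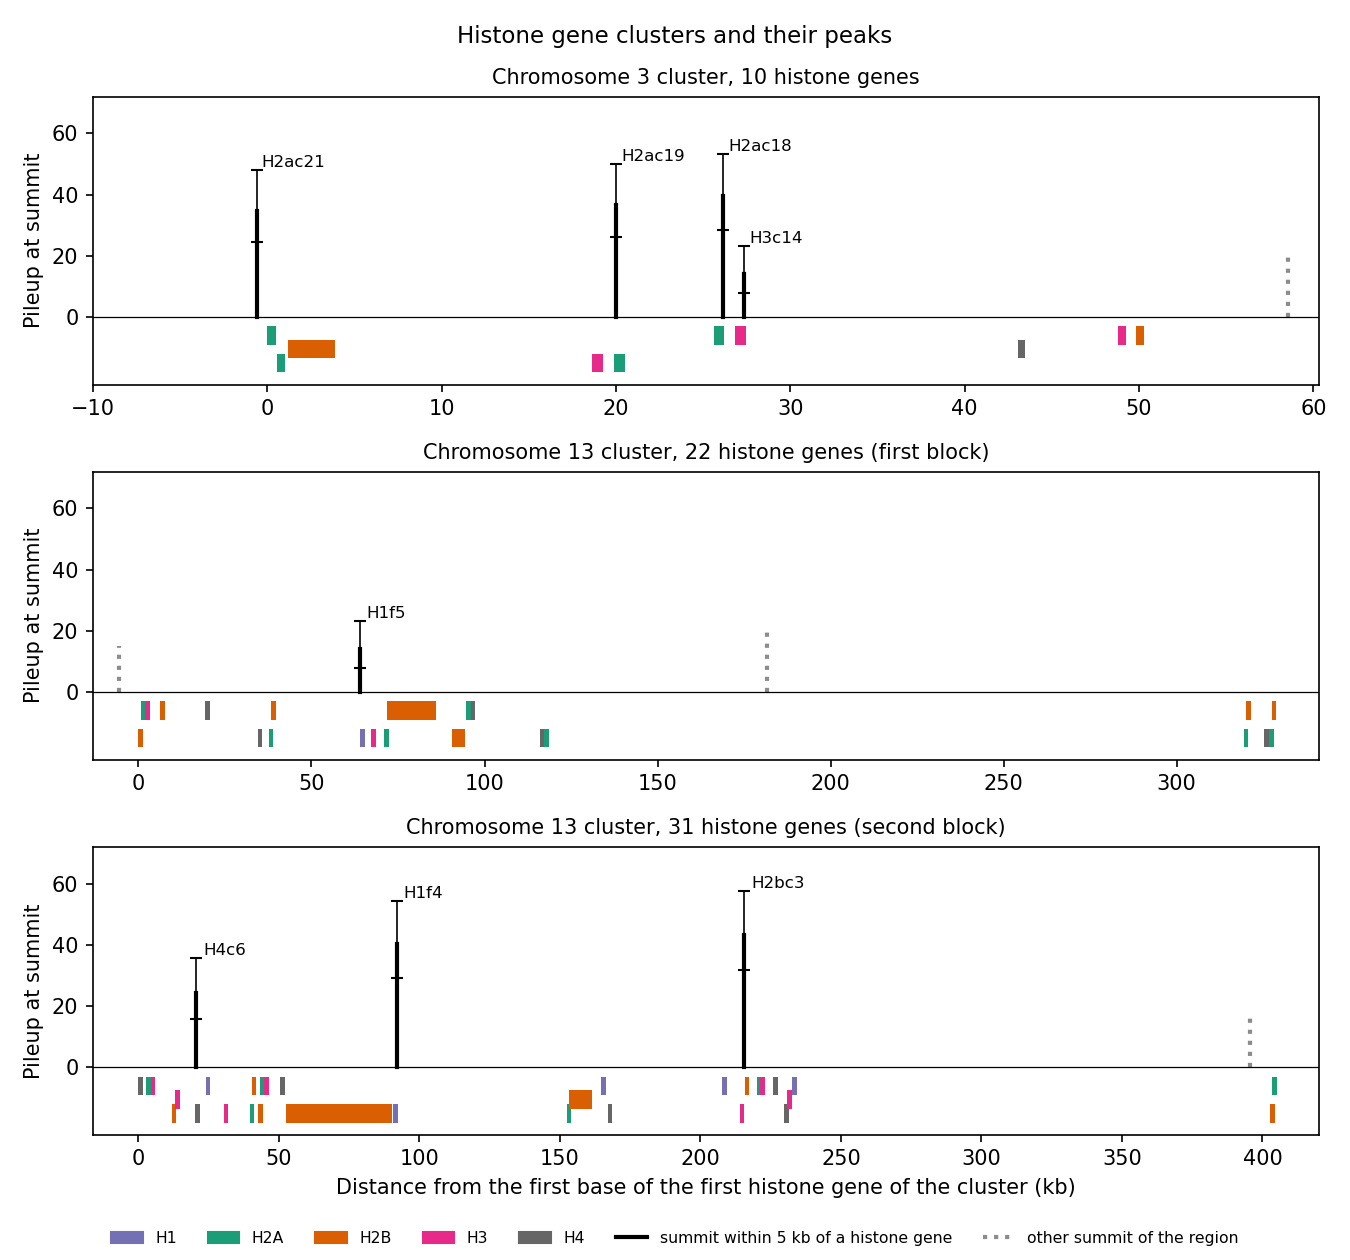
Summits at the 3 histone clusters, by distance in kb from the first histone gene of each cluster and pileup in scaled fragments, with 95% exact Poisson intervals as whiskers. Coloured boxes below the line are histone genes by family, in the upper row on the plus strand, in the lower row on the minus strand and between them where no strand was at hand. The chromosome 3 cluster has 4 peaks within 5 kb of a histone gene, 3 of them with the summit inside its 50.3 kb, and the first block on chromosome 13 has 1 such peak and 2 summits inside its 328 kb.

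The chromosome 3 cluster, whose genes carried Hist2 symbols in the older naming, spans chr3:96219885-96270192 and holds 4 H2A, 2 H2B, 3 H3 genes and 1 H4 gene. Its strongest peak by fold, chr3:96219097-96219507, had a fold enrichment over background of 11.6 and a pileup of 34.7. The pileup is the stacked fragments at the summit after the peak caller's scaling, here 37 fragments (exact Poisson interval 26.1 to 51.0). The summit lay 621 bp upstream of H2ac21, and H2ac20 and H2bc21 were marked by the same peak at 1149 and 1808 bp from their spans. H2ac21 and H2ac20 encode H2A, and H2bc21 encodes H2B.

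Further along, peaks lay inside both H2ac19 and H2ac18, a pair of H2A genes on opposite strands. The peak in H2ac19, chr3:96239706-96240026, reached a pileup of 36.6 (26 to 50.1) at a fold of 7.27. The peak in H2ac18, chr3:96245793-96246091, reached a pileup of 39.4 (28.4 to 53.3) at a fold of 10.1. Their pileups differ by less than the counting error. The difference in fold goes with a local background of 4.18 at H2ac19 and 3.00 at H2ac18. Both summits lay toward the end of the gene, 503 bp after the annotated start and 92 bp before the last base of H2ac19, and 502 bp after the start and 53 bp before the last base of H2ac18. The starts themselves are annotated at different places in the matching sequence, so the near-equal distances from them do not put the summits at the same base. These peaks also marked the H3 genes next door, H3c15 at 744 bp and H3c14 at 686 bp upstream of their starts.

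The stretches around the starts of this pair match closely in opposite directions, and they are shown because reads from equal sequence cannot be assigned to one copy. Stretches of RefSeq GRCm38.p6, each reaching from before the annotated start into the gene, are given with capitals at the bases that differ. They lie at chr3:96245247-96245506 on the plus strand for H2ac18 and at chr3:96240325-96240584 on the minus strand for H2ac19.
H2ac18: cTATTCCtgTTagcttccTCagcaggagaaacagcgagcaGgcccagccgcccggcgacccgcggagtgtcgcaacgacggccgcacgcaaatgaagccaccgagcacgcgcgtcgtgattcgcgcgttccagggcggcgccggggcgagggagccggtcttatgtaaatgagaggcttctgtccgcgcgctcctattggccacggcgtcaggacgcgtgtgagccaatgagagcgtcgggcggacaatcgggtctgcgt
H2ac19: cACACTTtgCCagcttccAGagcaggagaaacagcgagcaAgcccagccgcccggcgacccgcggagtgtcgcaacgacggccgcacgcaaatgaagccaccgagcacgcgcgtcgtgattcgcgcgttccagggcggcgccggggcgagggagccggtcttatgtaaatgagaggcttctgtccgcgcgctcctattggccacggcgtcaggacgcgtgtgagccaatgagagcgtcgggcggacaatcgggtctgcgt
Of 260 bases compared, 249 were equal, with the annotated starts offset by 40 bases, and the last 219 were equal without a break. The windows of H3c14 and H3c15 were equal at 284 of 285 bases. Sequence at the summits, which lie outside these stretches, was not compared, and the part of this likeness in the paired peaks was not tested. Without the peak in H2ac19 there were 8 distinct peaks and 15 marked genes, an alternative chosen after seeing the data. A further peak, inside H3c14 at chr3:96247077-96247250 and 525 bp after its start, was lower, with a pileup of 14.1 (7.88 to 23.2) and a fold of 5.03. No peak was listed inside H3c15. In the same cluster H2bc18, H3c13 and H4c14 were not marked, with the nearest summit at 8234, 9271 and 15109 bp.

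On chromosome 13 the second block, chr13:23531044-23934913, held 31 histone genes and 3 peaks that marked 7 of them. The peak at H2bc3, chr13:23746521-23746818, had the highest pileup of any at a histone gene, 43.2 (31.6 to 57.6), with a fold of 8.84. It covered 263 of the 300 bases of the H2bc3 window shown above. The same summit lay 1141 bp upstream of H3c3, an H3 gene, 4426 bp upstream of H2ac4, an H2A gene, and 148 bp from the pseudogene H2ac5-ps. The peak at H1f4, chr13:23622949-23623279, had a pileup of 40.4 (29.2 to 54.4) and a fold of 6.90. Its summit lay 507 bp upstream of H1f4, which encodes a linker histone that binds DNA between nucleosomes, and 1971 bp upstream of the H2B gene H2bc6. The peak at H4c6, chr13:23551512-23551786, had a pileup of 24.4 (15.9 to 35.8) and a fold of 7.79. It also marked H1f3, a linker histone gene whose start is 3385 bp away.

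The first block, chr13:21715711-22043658, held 22 histone genes and 31 tRNA genes. Its only peak within 5 kb of a histone gene, chr13:21779509-21779744, had a pileup of 14.1 (7.88 to 23.2) and a fold of 5.03. The summit lay 242 bp past the end of the linker histone gene H1f5 and 3325 bp from the span of H3c11. A further summit between the ends of this block lay 63.8 kb from H2ac24, the nearest gene of the symbol rule, and 221 bp from the tRNA gene n-TItat14, with a fold of 6.64. Another, 5639 bp outside the block from H2bc13 and 508 bp from the tRNA gene n-TGgcc7, had a fold of 5.25. The 9 peaks at histone genes lay 21.2 kb or more from any tRNA gene. The chromosome 3 cluster and the second block, where most of these peaks lie, held 0 tRNA genes. Of the 10 other protein-coding genes between the ends of the 3 clusters 0 were marked, 0%. They include H4bc24, a gene with the older histone symbol Hist1h2br that the symbol rule did not take and that is in no list here. Others are the iron regulator gene Hfe and the phosphate transporter family genes Slc17a1 to Slc17a4.

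Among the variant genes, H3f4 alone was marked. H3f4 is an H3 gene listed under the synonym H3t and lies near the histone genes H2aw and H2bu2 on chromosome 11. Its peak, chr11:58963958-58964132, was the weakest of the 9, with a fold of 4.28 and a pileup of 12.2 (6.50 to 20.9), and its summit was 1686 bp past the gene and inside the span of Trim17, a ubiquitin ligase family gene. The main H3.3 genes were not marked, with the nearest summit 14.6 kb from H3f3b and 76.6 kb from H3f3a. Neither were the H2A.Z genes, at 20.6 kb for H2az2 and 51.3 kb for H2az1. The linker variant H1f0, known from differentiated cells, had its nearest summit at 151 kb, and H1f10 at 216 kb. The germ-cell linker genes H1f8 and H1f7 were at 33.4 and 74.8 kb, and H3f3c at 187 kb.

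By histone type, the marked replication-dependent genes were 3 of 6 H1, 5 of 17 H2A, 3 of 16 H2B, 4 of 12 H3 and 1 of 12 H4 genes. The marked H1 genes were H1f3, H1f4 and H1f5, and H1f1, H1f2 and the testis gene H1f6 were not marked. The same rule marked 19.2% of all protein-coding genes. Shares by type ran from 8.33% for H4 (exact interval 0.211 to 38.5) to 50% for H1 (11.8 to 88.2). The types are not separate, since a shared peak counts for each, as the peak at H2bc3 did for H2B, H3 and H2A. Within these few peaks every type was represented, and no type differed in a way that was tested.

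**Figure D2:**
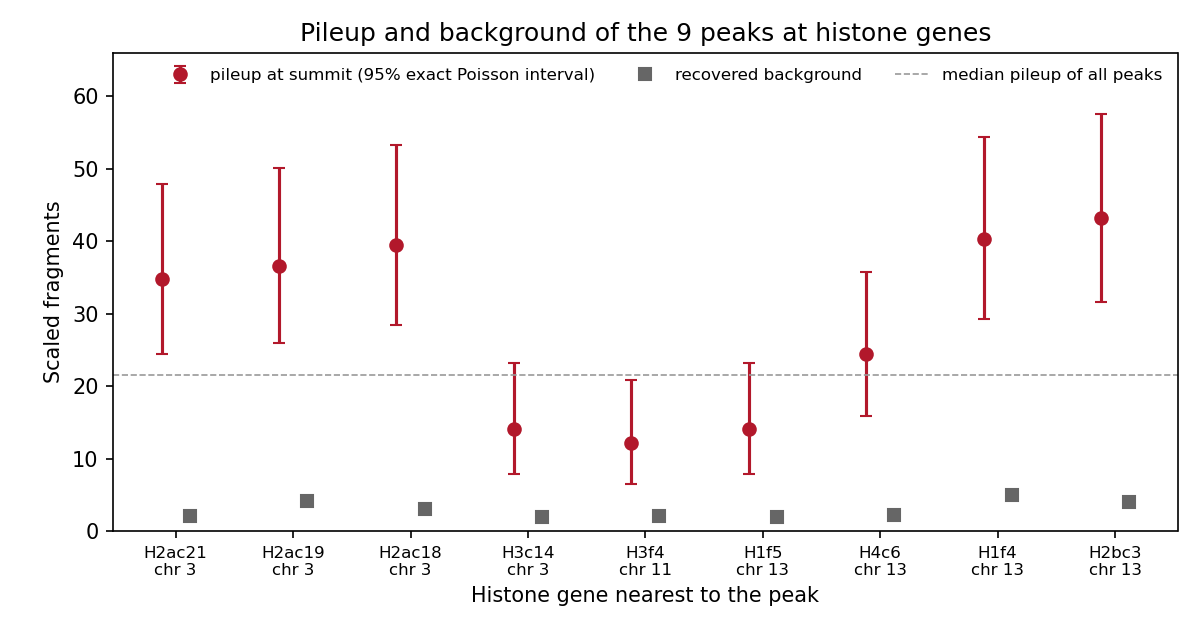
Pileup in scaled fragments at each of the 9 peaks, with 95% exact Poisson intervals, and the local background recovered from pileup and fold. Pileups at H2ac21, H2ac19, H2ac18, H1f4 and H2bc3 lie between 34.7 and 43.2 with intervals above the median of all peaks, 21.6, and the others lie at 24.4 or lower.

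The 9 peaks were of ordinary fold within the list. Their median fold was 7.27, with a range of 4.28 to 11.6, and the median of all peaks was 6.91. Their median pileup was 34.7, where that of all peaks was 21.6. With 10 and 30 kb allowed in place of 5 kb, the median pileup was 22.5 and 20.7. The pileups of the 9 peaks split into a high and a low set. Of them, 5 lay above 79.2% or more of all peaks and H4c6 above 57.7%. The peaks at H3c14, H1f5 and H3f4 lay above 6.43%, 6.43% and 1.40%. Fold and pileup ranked these peaks differently. H2ac21, above 79.2% of peaks in pileup, was above 83.1% in fold. H1f4, above 85.2% of peaks in pileup, was above 49.4% in fold, and H2ac19, above 81.6% in pileup, was above 54.5% in fold. The local background was 5.0 at H1f4, 4.18 at H2ac19, 4.0 at H2bc3 and 3.00 at H2ac18, above the third quartile of all peaks, 2.61. The other 5 peaks had 2.00 to 2.26. What raised the background at these genes was not tested.

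**Figure D3:**
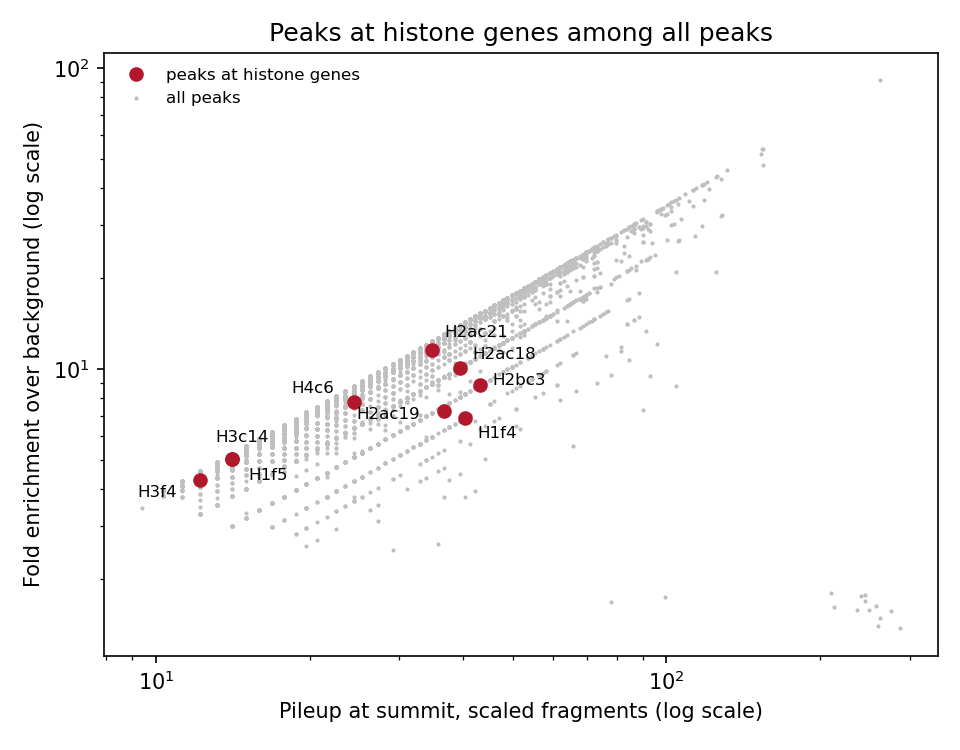
Fold enrichment against pileup in scaled fragments, both on log scales, for the 9 peaks at histone genes, named by the nearest gene, and for all 7484 peaks. H3c14 and H1f5 coincide at a pileup of 14.1 and a fold of 5.03, and H1f4 and H2ac19 lie lower in fold than most peaks of like pileup.

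Around their starts the peaks had no single place. By the nearest gene, 2 summits lay within 100 bp of a start (H4c6 and H2bc3), 2 lay 507 and 621 bp upstream (H1f4 and H2ac21), 3 lay 502 to 525 bp after the start inside the gene (H2ac18, H2ac19 and H3c14), and 2 lay past the far end (H1f5 and H3f4). A summit within 1 kb of the RefSeq start, a rule chosen after seeing the data, was found for 8 of 68 histone genes with a known start, 11.8%, where 6.55% of 17492 protein-coding genes had one. The 8 include H2ac18, H2ac19, H2ac21, H3c14 and H3c15 of the chromosome 3 cluster, where H2ac19 shares a peak with H3c15 and H2ac18 with H3c14. No interval was computed for this share.

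The distance allowed set how many histone genes were marked. With 1 kb in place of 5 kb, 9 histone genes were marked, 12.3%, below the 16.6% of all protein-coding genes. With 2 kb, 14 were marked, 19.2%, beside 17.3% of all genes. With 10 kb it was 31, 42.5%, beside 22.3%, and with 30 kb 53, 72.6%, beside 32.6%. Distinct peaks over the same distances grew only to 8, 9, 13 and 15. The replication-dependent genes had a median distance to the nearest summit of 12 kb, the variant genes 63.1 kb and all protein-coding genes 81.0 kb. Just inside the threshold were H3c11 at 3325 bp, H1f3 at 3385 bp and H2ac4 at 4426 bp. Just outside it were H2bc13 at 5639 bp, H3c2 at 5683 bp and H2ac13 at 6340 bp.

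**Figure D4:**
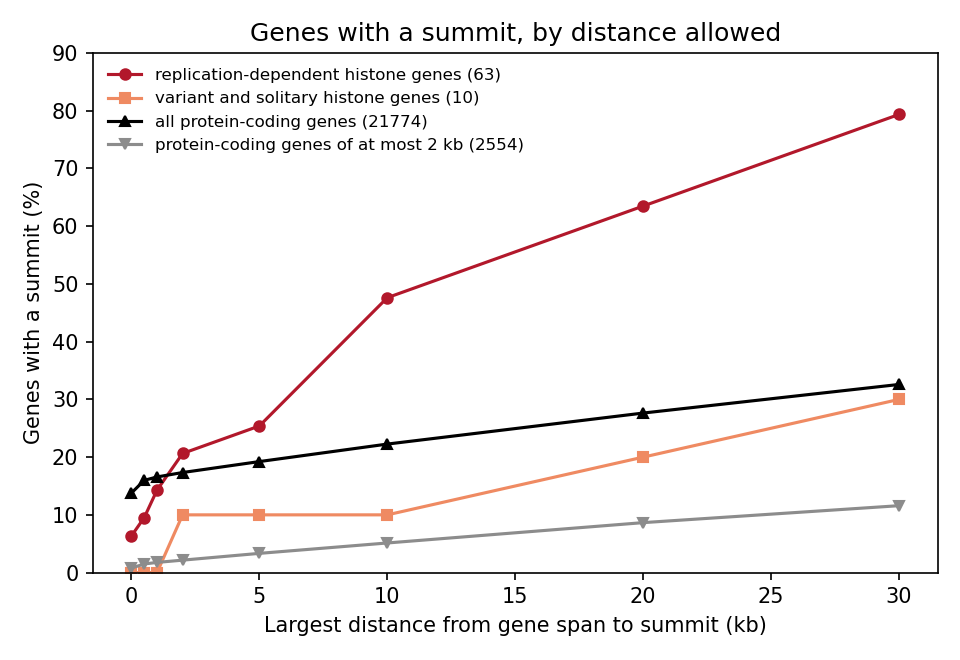
Share of genes with a summit, in percent, against the largest distance allowed from the gene span, in kb, for replication-dependent histone genes, variant and solitary histone genes, all protein-coding genes and those of at most 2 kb. Replication-dependent genes go above all protein-coding genes from 2 kb on and reach 79.4% at 30 kb.

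Promoter windows were matched for 68 of the 73 histone genes, 69 windows in all, with 59 of them at replication-dependent genes. The motifs were searched on both strands and matches may overlap. The octamer ATTTGCAT, known from H2B promoters, was in 22.0% of replication-dependent windows, in 10% of variant windows and in 1.66% of 21263 protein-coding windows. It was found in 7 of 15 H2B windows, 6 of 19 H2A windows, 1 of 14 H3 windows and in none of the H1 or H4 windows. H2A and H2B genes often share 1 promoter in opposite directions, so a match can count for both. CCAAT was in 86.4% of replication-dependent windows, against 38.2% of all windows, and TATAAA in 57.6%, against 12.6%.

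The nuclear receptor half-site AGGTCA was in 2 of 59 replication-dependent windows, 3.39%, and in 2 of 10 variant windows, against 14.7% of all windows. The replication-dependent genes with it were H3c11, which was marked, and H2bc22, which was not. In H3c11 the half-site began 238 bases before the start, while the summit that marked the gene lay 3807 bp after the start. The variants with the half-site were H1f7 and H3f3c. The exact direct repeat of that half-site with 4 bases between, DR4, was in none of the 21263 windows, so it separates no genes here. Marked and unmarked histone genes held the octamer in 4 of 17 and 10 of 52 windows, CCAAT in 16 of 17 and 41 of 52, and TATAAA in 11 of 17 and 25 of 52. Only H4c6 and H2bc3 had a summit inside their window, so these counts compare genes and not the sequence under peaks. A match is a run of letters and not a site shown to be bound.

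**Figure D5:**
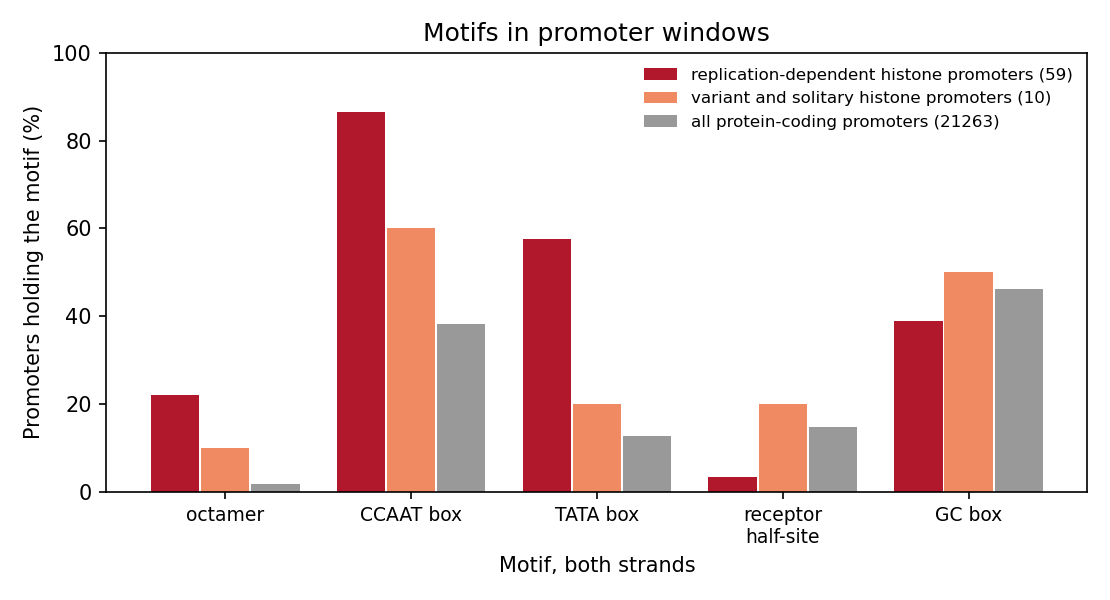
Share of promoter windows of 300 bases that hold each motif on either strand, in percent, for replication-dependent histone genes, variant and solitary histone genes and all protein-coding genes. The octamer, CCAAT and TATA bars are tallest at replication-dependent genes, and the receptor half-site bar is shortest there.

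Genes that work with histones were set beside the same 19.2% of all protein-coding genes, in 3 lists, with no test. How a list stood to all genes depended on the distance allowed. At 30 kb, 41.2% of the other histone genes, 28.6% of the histone mRNA genes and 33.3% of the chaperone genes were marked, beside 32.6% of all genes. The counts that follow are at 5 kb. Of 17 other histone genes, 1 was marked, 5.88%. This was Macroh2a1, the gene of a large H2A variant linked to silent chromatin, with 3 peaks inside its span of folds 13.1, 14.1 and 3.39. H2ax, a DNA damage marker gene, and Cenpa, the centromeric H3 gene, were not marked. Of 35 genes for histone mRNA processing and histone transcription, 5 were marked, 14.3%. The highest folds were 38.1 at Upf1, an RNA decay helicase gene, 11.7 at Lsm1, an mRNA decapping cofactor gene, 10.1 at Lsm11, a U7 snRNP subunit gene of histone mRNA 3′ end formation, and 6.71 at Cpsf3, the cleavage nuclease gene. The summits lay 2221, 2791 and 325 bp outside the spans of Upf1, Lsm11 and Cpsf3, and inside that of Lsm1. Npat and Slbp, which encode the activator of histone transcription and the stem-loop binding protein, were not marked. Of 39 chaperone and remodeller genes, 5 were marked, 12.8%, with folds of 17.2 at Supt6, an elongation factor and chaperone gene, 7.53 at Ino80, a remodeller gene, 6.85 at Srcap, a remodeller gene that deposits H2A.Z, and 5.71 at Ubn2, an H3.3 chaperone subunit gene.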

How the data were processed

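Chromatin of mouse striatum was sequenced as 3 IP fractions and 1 input for the Ion Proton, as the labels' protocols state, and 1 peak list of the series was analysed. The submitters' processing notes name GRCm38 and mm10 as builds and, as tools, MACS2 2.1.1.20160309.0 beside Bowtie2 2.3.4.2. Settings, and any pooling of IP fractions, are not given in the sources used here. For each peak the deposited columns used were a pileup signal, a linear fold enrichment ratio and −log10 q, all as the authors made them.

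From these, background was computed as (pileup + 1) / fold − 1. Pileups lay on a grid of step 0.939 (largest residual 0.00504), which gave fragments per summit and exact Poisson intervals for counting error. Whether reads that are PCR copies were removed before the pileup is not known here, and the intervals treat every counted fragment as separate. Gene spans are those of RefSeq on GRCm38.p6. Its 126 protein-coding entries off the assembled chromosomes were left out. The marking rule was tested on simulated positions. Work was done in Python 3.11.15 with pandas 2.3.3, numpy 2.4.6, scipy 1.17.1.

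The members, gene lists, motifs and alternatives were chosen with earlier results of these data known. All marked members, up to 4 genes per list and neighbours of the 9 peaks are named. Other genes named, without a peak or as examples, were chosen for their role or after their values were seen.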

Additional observations from a re-analysis of the deposited data

How the results depend on the processing

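Leaving out a replicate was not run, since the list holds no value per library. No paired analysis was possible because the columns carry no replicate number. Of 93 comparisons with an alternative, 69 were kept (a count within 1.5 times, a median within its binomial 95% interval) and 24 moved. All moved values are counts and none is a median. That label says little for the median pileup, whose interval of 14.1 to 40.4 covers most of the range of the 9 peaks. The median pileup was 34.7 as reported, 22.5 with 10 kb and 20.7 with 30 kb, beside 21.6 for all peaks. With 1 kb the counts were 9 histone, 9 replication-dependent, 0 variant and 3 mRNA processing genes. With 2 kb they were 3 mRNA processing genes. With 10 kb they were 31 histone, 30 replication-dependent, 2 other histone and 9 chaperone genes. With 30 kb they were 53 histone, 50 replication-dependent and 3 variant genes, 15 distinct peaks, and 7 other histone, 10 mRNA processing and 13 chaperone genes. With a −log10 q of at least 10 they were 0 variant, 3 mRNA processing and 2 chaperone genes. Above the median fold they were 0 variant genes, 5 distinct peaks, 3 mRNA processing and 2 chaperone genes. A summit within 1 kb of the RefSeq start gave 8 histone genes. A −log10 q of at least 10 kept 14 of the 17 marked genes, 19.2% of histone genes beside 11.6% of all protein-coding genes, and lost H1f5, H3c11 and H3f4. Those 14 genes rested on 6 distinct peaks. A fold above the median kept 12, 16.4% beside 11%, on 5 distinct peaks. The rules on peak overlap, extreme peaks and high background changed no marked histone gene. A gap of 2 Mb joined both chromosome 13 blocks, giving 2 clusters. Wider distances add genes by construction. Summits of 13 to 15 fragments at H3f4, H1f5 and H3c14 limit what can be said there.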
